A study of Mus musculus with 8 samples.

Results

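Keratins are the intermediate filament proteins of epithelial cells, and 10 of them, Krt20, Krt7, Krt8, Krt18, Krt19, Krt5, Krt14, Krt15, Krt23 and Krt80, were followed in kidney RNA of tacrolimus-treated mice. They were chosen by gene name: every non-control probe annotated to one of the 10 genes was taken, which gave 12 of the 55681 probes of the array, with 2 probes each for Krt5 and Krt8. Krt20 is among them because it stood out in the same comparison of these arrays, so that the differences of the 10 keratins are given as descriptions, with no test. The samples were total kidney RNA of CD-1, which is an outbred stock, 0.2 ug each, labelled and hybridised to 1-colour Agilent arrays. The TAC group (4 arrays) received tacrolimus, a calcineurin inhibitor, at 1 mg/kg/day for 28 days, and the CTL group (4 arrays) received physiological serum. The replicates are numbered in the labels without naming animals, and they state neither the age nor the sex of the mice.

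Keratins form filaments as pairs of a type I and a type II chain, and the partners are made together in a given epithelium. Krt8 (type II) and Krt18 (type I) are the pair of simple epithelia such as the renal tubule, Krt7 (type II) and Krt19 (type I) accompany them in ducts and in the urothelium that lines the renal pelvis, and Krt5 (type II) with Krt14 and Krt15 (type I) mark basal cells of stratified epithelia. Krt20 (type I) is known from differentiated cells of the gut lining and from the umbrella cells of the urothelium, and in mice it is also made by injured kidney tubule cells. Of the 10 genes, 6 encode type I chains and 4 encode type II chains.

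Each value below is the log2 of the background-subtracted signal relative to the 75th percentile of its own array, so that 0 is the level of the 75th percentile and each unit is a doubling. Levels of different probes are not set against each other, because probes differ in brightness. On each array 64.0 to 69.8% of non-control spots were well above background and 0 were saturated, and the 75th percentile corresponded to 674 to 1061 intensity units. All arrays were on 1 slide, with CTL in row 1 and TAC in row 2, so that row and treatment cannot be told apart. In whole-kidney RNA, fewer cells of a type and less RNA per cell cannot be told apart. Over all 25127 genes tested with limma, 57 passed an adjusted p of 0.05, which is 0.227% of them. Of these, 47 were higher in TAC (0.187%) and 10 were lower (0.0398%). Of the 10 keratins, 9 were bright enough to be tested and 1 passed, Krt20. That count rests on the contrast that chose Krt20, and nothing is read from it. The median difference of the 9 tested keratins was 0.34, and that of all genes tested was -0.05.

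Krt20 was high on all TAC arrays and low on all CTL arrays. Its probe lies at chr11:99289776-99289835 on the minus strand of mm9, and it is shown because the largest difference among the keratins rests on this single probe, in which no part is marked in capitals.
Krt20: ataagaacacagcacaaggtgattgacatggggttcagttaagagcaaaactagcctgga
The longest stretch that it shared with a probe of another gene on the array was 14 bases. The level of Krt20 was -0.75, 0.73, -0.60 and -0.78 on TAC arrays 1 to 4. On CTL arrays 1 to 4 it was -4.67, -4.34, -5.38 and -6.93. In processed intensity units, before scaling, the signal was 631, 1533, 445 and 450 on the TAC arrays and 41.3, 43.1, 19.1 and 7.11 on the CTL arrays. The groups were separated by a gap of 3.57 between the lowest TAC and the highest CTL array, TAC array 2 was the highest of all, and CTL array 4 was the one on which the probe was not well above background.

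The mean level of Krt20 was -0.35 ± 0.72 in TAC and -5.33 ± 1.15 in CTL (SD, n = 4 each), a difference of 4.98 (SE 0.58) or 31.5-fold. By size of difference it ranked 2 among the 25127 genes. The difference stayed between 4.45 and 5.31 when any array was left out. It was smaller where more of the background stays in the signal, at 3.06 with normexp correction and an offset of 50 and at 3.61 in the deposited value table. Of the 8 fits that each left out an array, those without CTL array 2, CTL array 3, TAC array 1, TAC array 2 or TAC array 3 had 0 keratins past the threshold and the other 3 had 1.

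**Figure D1:**
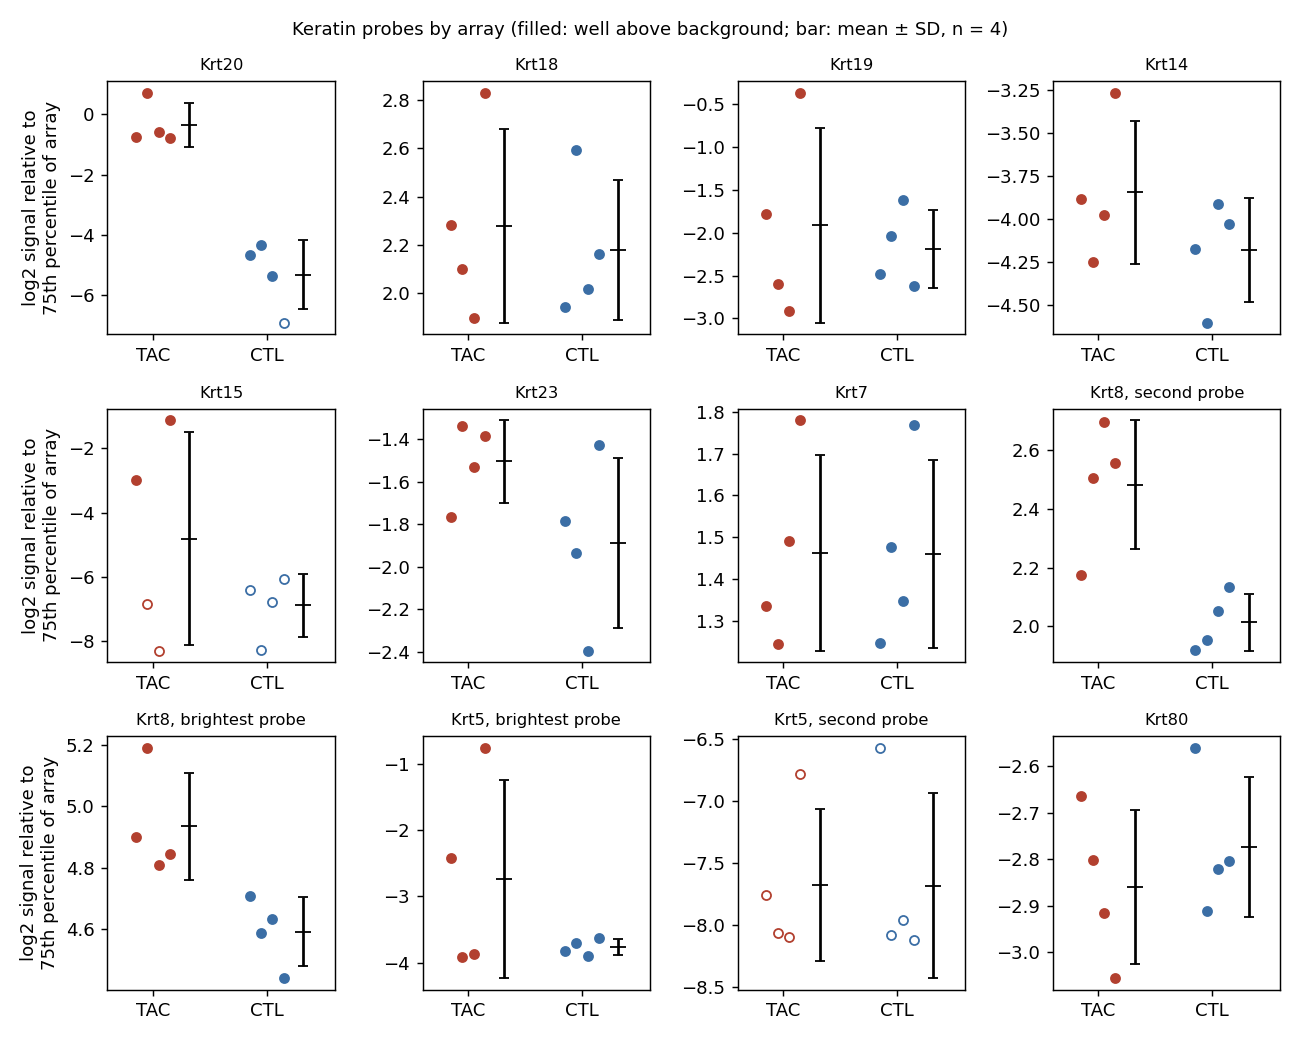
Level of each of the 12 keratin probes on each array, as log2 signal relative to the 75th percentile of the array, with TAC left of CTL, and bars for mean ± SD (n = 4). Filled points are well above background, and Krt20 shows the widest separation, with TAC at -0.78 to 0.73 and CTL at -6.93 to -4.34.

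The start of Krt20 is shown as the regulatory sequence of the member with the largest difference. RefSeq promoter windows, from 250 bases before to 50 after the annotated start, were matched for 7 of the 10 keratins. That of Krt20 lies at chr11:99438104-99438403 on the minus strand of GRCm38.p6, with the letters TATAAA in capitals.
Krt20 promoter: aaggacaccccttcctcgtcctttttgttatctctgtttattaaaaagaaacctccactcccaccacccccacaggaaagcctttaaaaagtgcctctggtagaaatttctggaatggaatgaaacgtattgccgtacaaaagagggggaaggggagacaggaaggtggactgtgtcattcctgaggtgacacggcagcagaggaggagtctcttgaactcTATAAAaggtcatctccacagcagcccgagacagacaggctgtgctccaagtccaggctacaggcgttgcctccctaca
Motifs were searched on both strands in all 32851 promoter windows of that length. TATAAA, found in 13.6% of them, was present in the windows of Krt20 and Krt8. GGAAA, the core letters read by NFAT factors, which calcineurin activates, was present in 61.3% of all windows and in those of Krt14, Krt20, Krt23, Krt5 and Krt8. The AP-1 letters TGANTCA (7.81% of all windows) and the STAT letters TTCNNNGAA (8.30%) were in 0 of the 7 keratin windows. These are matches of letters in a short window and carry no statement about binding.

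Krt8, the type II chain of simple epithelia, was modestly higher on all TAC arrays at both of its probes. At the brighter probe (mm9 chr15:101827138-101827197, minus strand) the level was 4.90, 5.19, 4.81 and 4.84 on TAC arrays 1 to 4, against 4.71, 4.59, 4.63 and 4.44 on CTL arrays 1 to 4. The difference was 0.34 (SE 0.11), or 1.27-fold, and the lowest TAC array lay 0.10 above the highest CTL array. The second probe (chr15:101828827-101828886, minus strand) had levels of 2.18, 2.50, 2.69 and 2.56 on TAC arrays and 1.92, 1.95, 2.05 and 2.13 on CTL arrays. Its difference was 0.47 (SE 0.12), or 1.38-fold, with a gap of 0.04 between the groups. The 2 probes lie at different stretches of the gene and are annotated to different transcript records. Both put the 4 TAC arrays above the 4 CTL arrays, though by gaps smaller than the spread within TAC. They are printed because they are separate measurements of the same gene, the brighter by its bases 21 to 50, with the AATAAA letters of a polyadenylation signal in capitals.
Krt8 brighter probe: tgtattttctaaAATAAAgcctcagctggc
Krt8 second probe: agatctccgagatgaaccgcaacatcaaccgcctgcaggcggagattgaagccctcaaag
Of the tested keratins, 2 had groups that did not overlap, Krt20 and Krt8, both with TAC above CTL. Among all genes tested this held for 10.1%, with TAC above CTL in 4.35% and below it in 5.75%.

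Krt18, the usual partner of Krt8, did not separate the groups. Its level was 2.28, 2.10, 1.90 and 2.83 on TAC arrays 1 to 4, against 1.94, 2.59, 2.02 and 2.16 on CTL arrays 1 to 4. The difference was 0.10 (SE 0.22). Relative to the CTL mean, Krt18 lay 0.10 above it on TAC array 1, 0.08 and 0.28 below it on TAC arrays 2 and 3, and 0.65 above it on TAC array 4. Krt8 lay above its CTL mean on all 4 of these arrays at both probes.

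The chains of ducts and urothelium, Krt7 and Krt19, also overlapped between the groups. Krt7 had levels of 1.34, 1.25, 1.49 and 1.78 on TAC arrays, against 1.25, 1.48, 1.35 and 1.77 on CTL arrays, with a difference of 0.00 (SE 0.15). Krt19 had levels of -1.78, -2.60, -2.91 and -0.36 on TAC arrays, against -2.48, -2.04, -1.61 and -2.63 on CTL arrays. Its TAC arrays held both the highest and the lowest level of the 8, and the SD was 1.14 in TAC and 0.46 in CTL. The mean difference of Krt19 was 0.28 (SE 0.52), and it became -0.57 without TAC arrays 1 and 4.

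The basal keratins Krt5 and Krt15 were high on TAC arrays 1 and 4 and at CTL levels on TAC arrays 2 and 3. Krt5 had levels of -2.42, -3.92, -3.87 and -0.75 on TAC arrays, against -3.83, -3.71, -3.90 and -3.62 on CTL arrays. The mean was -2.74 ± 1.50 in TAC and -3.77 ± 0.12 in CTL (SD, n = 4 each), a difference of 1.02 (SE 0.64) that became -0.13 without TAC arrays 1 and 4. Leaving out TAC array 4 alone gave 0.36, the lowest value without a single array. The second Krt5 probe, at chr15:101542056-101542115 on the minus strand, did not rise well above background on any of the 8 and gives no difference. The Krt5 probe that was read (chr15:101537514-101537573, minus strand) and the one that was not are printed so that they can be told apart, the first by its bases 31 to 60 with AATAAA in capitals.
Krt5 probe read: tgacttcctccagagtctgtccAATAAAat
Krt5 probe not read: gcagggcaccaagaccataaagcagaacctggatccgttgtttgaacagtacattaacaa

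Krt15, a type I keratin of basal cells, was well above background on TAC arrays 1 and 4 only. Its processed intensity was 133, 8.13, 2.15 and 353 units on TAC arrays 1 to 4, against 12.4, 2.80, 7.20 and 12.9 units on CTL arrays. On the log2 scale these were levels of -3.00, -6.83, -8.29 and -1.12 on TAC arrays and -6.40, -8.28, -6.78 and -6.07 on CTL arrays. No fold change of the means is given, because TAC arrays 2 and 3 and all CTL arrays were not well above background. Without TAC arrays 1 and 4 the difference of measured Krt15 levels was -0.68. Its probe (chr11:99993331-99993390, minus strand) is printed with that of Krt19 (chr11:100002392-100002451, minus strand), a neighbouring type I gene with its highest TAC levels on the same arrays.
Krt15: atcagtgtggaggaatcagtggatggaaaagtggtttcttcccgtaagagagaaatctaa
Krt19: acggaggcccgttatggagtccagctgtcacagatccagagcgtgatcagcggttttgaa

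Krt14, the usual type I partner of Krt5, ranged less. Its level was -3.88, -4.25, -3.98 and -3.27 on TAC arrays, against -4.18, -4.60, -3.91 and -4.03 on CTL arrays. The difference was 0.34 (SE 0.23), and 0.07 without TAC arrays 1 and 4. Krt23, a type I keratin, had levels of -1.77, -1.34, -1.53 and -1.38 on TAC arrays, against -1.79, -1.94, -2.39 and -1.43 on CTL arrays. Its difference was 0.38 (SE 0.20), with CTL array 4 level with the TAC arrays. Krt80, a type II keratin, was the one tested member with a lower TAC mean, at -2.66, -2.80, -2.92 and -3.06 on TAC arrays against -2.56, -2.91, -2.82 and -2.80 on CTL arrays, a difference of -0.09 (SE 0.12). Of the 9 tested keratins, 8 had a higher mean in TAC and 7 overlapped between the groups. Those 8 include Krt20 itself and Krt7, at 0.00. Without TAC arrays 1 and 4 the differences of Krt18, Krt19 and Krt5 were -0.18, -0.57 and -0.13, so that nothing is read from the count of higher means.

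Urothelium markers were read on the same arrays, because the urothelium is a known source of Krt5, Krt19 and Krt20. Upk3a, a uroplakin of the umbrella cell membrane, had levels of -1.66, -4.97, -4.35 and 0.54 on TAC arrays, against -4.56, -3.81, -4.53 and -4.63 on CTL arrays. Upk1a, another uroplakin, had -0.19, -1.69, -1.60 and 1.37 on TAC arrays, against -1.57, -1.34, -1.24 and -1.56 on CTL arrays. Both were high on TAC arrays 1 and 4 and at CTL levels or below on TAC arrays 2 and 3, and neither passed limma's test (adjusted p = 0.450 and 0.495). Upk1b and the transcription factor Foxa1 were well above background on TAC arrays 1 and 4 only. On those arrays Upk1b was -4.02 and -2.07 and Foxa1 was -3.93 and -1.63. No fold change of their means is given, because the other arrays were not well above background. Upk2 had levels of -2.56, -7.54, -8.26 and -1.58 on TAC arrays and -5.95, -6.03, -6.74 and -5.21 on CTL arrays, with a difference of 1.00 (adjusted p = 0.772). Trp63, a transcription factor of basal cells, differed by -0.01 at its brightest probe (adjusted p = 0.984). A dimmer Trp63 probe had levels of -3.94, -5.38, -5.09 and -3.66 on TAC arrays, against -4.45, -5.92, -5.73 and -4.48 on CTL arrays, a difference of 0.63 (SE 0.49), and another tested probe differed by 0.02. At that dimmer probe TAC arrays 1 and 4 were the highest of the 8 and the groups overlapped.

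Averaged over the 11 urothelium markers, the level relative to the CTL mean was 1.76, -0.21, -0.28 and 2.94 on TAC arrays 1 to 4, against -0.07, 0.10, -0.13 and 0.10 on CTL arrays. This average includes values not well above background, among them those of Upk2, Upk1b and Foxa1 on TAC arrays 2 and 3. The markers' summed signal was 1011 to 1919% of the 75th percentile on TAC arrays and 1095 to 1159% on CTL arrays, but the brightest probe, that of Trp63, made up 62.5 to 93.6% of it on TAC arrays and 92.2 to 92.9% on CTL arrays. Without Trp63 the sum over the other 10 was 271, 87.9, 77.2 and 719% on TAC arrays 1 to 4, against 77.5, 90.4, 82.9 and 82.6% on CTL arrays. With limma, 0 of the 9 tested markers passed an adjusted p of 0.05, and 1, Sprr1a, passed an unadjusted p of 0.05, higher in TAC. Of all genes tested, 7.04% were higher and 8.42% lower at an unadjusted p of 0.05, 15.5% in either direction. The median difference of the 9 was 0.34. Krt5, Krt15 and Krt19 thus had their highest TAC levels on the arrays on which the uroplakins were high, and the part of urothelium in their levels was not tested. The level of Krt20 was -0.60 and 0.73 on TAC arrays 3 and 2, against a CTL mean of -5.33. On these arrays the urothelium markers lay 0.28 and 0.21 below their own CTL mean. The difference of Krt20 without TAC arrays 1 and 4 was 5.39. The part of urothelium in the level of Krt20 was not tested either.

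**Figure D2:**
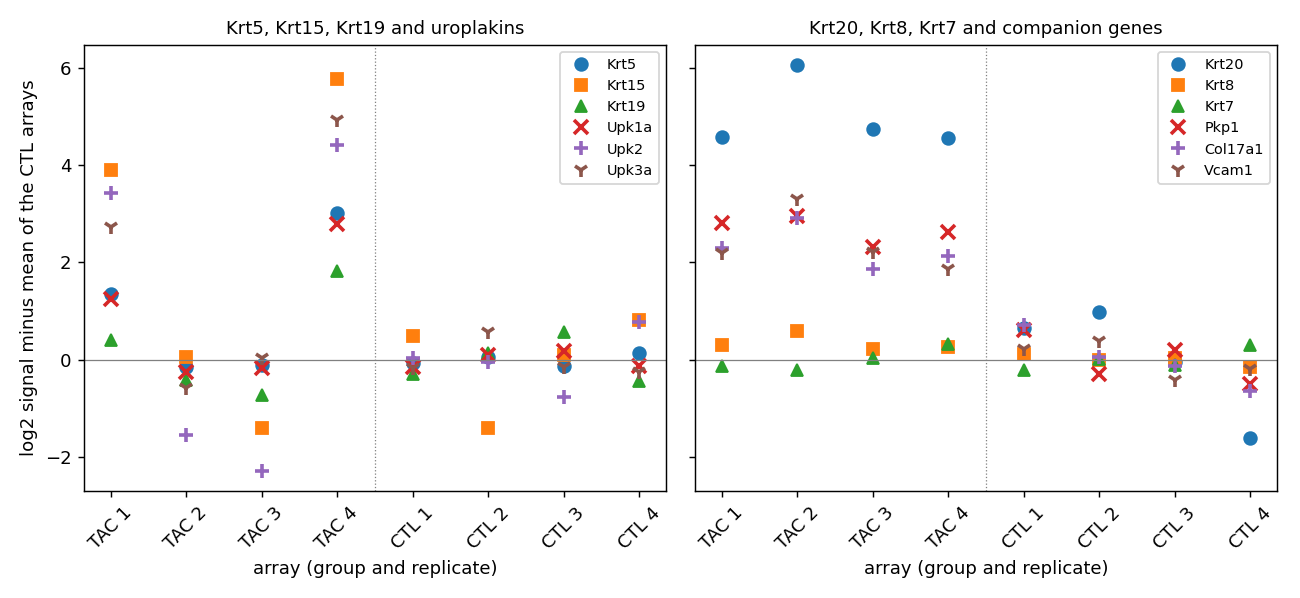
Level of each gene on each array minus its CTL mean, on the log2 scale, with TAC arrays left of CTL arrays. On the left are Krt5, Krt15, Krt19 and 3 uroplakins, all at their highest TAC levels on arrays 1 and 4, and on the right are Krt20, Krt8, Krt7, Pkp1, Col17a1 and Vcam1, of which Krt7 is the one with TAC arrays on both sides of its CTL mean.

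Markers of mesothelium, fat, collecting duct and proximal tubule were read in the same way, and 0 of them passed limma's adjusted threshold. Msln, a surface protein of mesothelial cells, which cover the organ, was -2.61, -4.68, -2.08 and -2.64 on TAC arrays, against -6.55, -5.13, -5.51 and -5.74 on CTL arrays, a difference of 2.73 (SE 0.55, adjusted p = 0.0779), with every TAC array above every CTL array. The mesothelium list had 0 of 3 tested members past the adjusted threshold and 1, Msln, past an unadjusted p of 0.05. Of all genes tested, 15.5% passed an unadjusted p of 0.05 in either direction, the share to set beside this count and those below. Upk3b and Gpm6a, the other tested members, overlapped between the groups, with differences of 0.82 (SE 1.03) and -0.07 (SE 0.22). Bnc1, of the mesothelium list, was below detection on all 8 arrays. Averaged over the 4 members well above background on some array, the mesothelium list stood at 1.48, -0.27, 1.75 and 1.35 relative to the CTL mean on TAC arrays. On CTL arrays 1 to 4 it stood at -0.64, -0.10, 0.57 and 0.17, so that the groups overlapped. The list's summed signal was 551 to 1070% of the 75th percentile on TAC arrays and 730 to 905% on CTL arrays, nearly all of it from Gpm6a, and without Gpm6a it was 4.63 to 28.3% on TAC arrays and 1.74 to 7.02% on CTL arrays. The adipocyte list averaged 3.47, 2.53, 2.71 and 6.22 relative to the CTL mean on TAC arrays, against -0.51, 2.61, -0.99 and -1.11 on CTL arrays. Of its 5 tested members, 0 passed the adjusted threshold and 5 an unadjusted p of 0.05. Plin1, among them, was well above background on no CTL array and entered the test only through TAC, and nothing is read from the count. The adipocyte list's summed signal was 117 to 1739% of the 75th percentile on TAC arrays and 6.04 to 141% on CTL arrays, and without Cfd, its brightest member, 33.4 to 365% on TAC arrays and 3.28 to 39.3% on CTL arrays. The adipocyte list and Krt20 both stood higher on each TAC array than on CTL arrays 1, 3 and 4. On CTL array 2 the adipocyte list stood 2.61 above its CTL mean. Krt20 also had its highest CTL level there, at -4.34 relative to the 75th percentile, against a CTL mean of -5.33. Markers of the collecting duct (12 tested) and the proximal tubule (10 tested) had 0 past the adjusted threshold and 0 and 1 past an unadjusted p of 0.05. Aqp2, the water channel of the collecting duct, differed by -0.40 (adjusted p = 0.359), and Slc34a1, a phosphate transporter of the proximal tubule, by -0.09 (adjusted p = 0.733). The part of adipocytes and mesothelium in the keratin levels was not tested.

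Tubular injury genes were read beside Krt20, which injured tubules of mice are known to make. Averaged over 19 such genes, the level relative to the CTL mean was 0.69, 1.29, 0.74 and 0.74 on TAC arrays 1 to 4, against 0.04, 0.17, -0.15 and -0.06 on CTL arrays, and TAC array 2 was the highest, as for Krt20. Of these 19, all tested, 1 passed the adjusted threshold, Vcam1, an adhesion molecule of injured tubules and activated endothelium. Vcam1 was 2.37, 3.48, 2.39 and 2.05 on TAC arrays, against 0.41, 0.56, -0.22 and -0.01 on CTL arrays, a difference of 2.39 (SE 0.31, adjusted p = 0.0391, and 0.0189 to 0.109 over 18 alternatives), and its second probe gave 2.47. The call on Vcam1 was lost without CTL array 1, 2, 3 or 4, or without TAC array 1 or 3, each left out alone. At an unadjusted p of 0.05, 11 of the 19 were higher and 0 lower, against 7.04% and 8.42% of all genes tested. Areg, among the 11, was well above background on no CTL array and entered the test only through TAC. The list was chosen with earlier results of these data known, so that nothing is read from its count. The list's median difference was 0.60, and its part in the level of Krt20 was not tested.

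Several further injury genes had wide differences without passing the adjusted threshold. Lcn2, the secreted NGAL protein of damaged tubules, was 1.45, 1.64, 0.94 and 0.92 on TAC arrays, against 0.23, 0.50, -0.55 and 0.09 on CTL arrays (difference 1.17, adjusted p = 0.0948). Sox9, a transcription factor of regenerating tubules, was -3.35, -1.98, -3.72 and -3.38 on TAC arrays, against -5.33, -5.60, -5.96 and -4.89 on CTL arrays (difference 2.34, adjusted p = 0.0552). In both genes every TAC array lay above every CTL array. Havcr1, the KIM-1 receptor of injured proximal tubules, overlapped between the groups with a difference of -0.25 (adjusted p = 0.564), and its second probe gave -0.79.

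Genes that anchor keratin filaments to the membrane were a further list of 18, of which 17 were tested. The 2 that passed the adjusted threshold, Pkp1 and Col17a1, entered the test only through the TAC arrays, and nothing about the list is read from that count. Pkp1, a desmosomal plaque protein that binds keratins, was -4.75, -4.61, -5.26 and -4.94 on TAC arrays, against -6.96, -7.87, -7.37 and -8.08 on CTL arrays. Col17a1, a transmembrane collagen of hemidesmosomes, was -4.67, -4.06, -5.10 and -4.83 on TAC arrays, against -6.26, -6.92, -7.09 and -7.61 on CTL arrays. Neither probe was well above background on any CTL array, so that the differences are bounds and the p-values set TAC against CTL values that lie within background. Pkp1 was at least 2.28-fold higher in TAC (limma adjusted p = 0.0108, and 0.00750 to 0.0874 over 17 alternatives), with its call lost without CTL array 2. Col17a1 was at least 2.60-fold higher (adjusted p = 0.0404, and 0.0274 to 0.146 over 17 alternatives), with its call lost without any of CTL arrays 2, 3 and 4 or any TAC array. Under normexp correction neither passed, with fitted differences of 0.47 each.

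The other 15 anchoring genes did not pass. Itgb4, the hemidesmosome integrin chain, had levels of -0.98, -0.91, -1.39 and -1.10 on TAC arrays and -1.45, -1.57, -1.53 and -1.64 on CTL arrays (difference 0.45, adjusted p = 0.147). At an unadjusted p of 0.05, 3 of the 17 were higher and 1 was lower, against 7.04% and 8.42% of all genes tested. The 3 were Itgb4 and, having entered only through TAC, Pkp1 and Col17a1, so that nothing is read from this count either. The 1 lower was Itga6, another integrin chain, at -0.35 (limma adjusted p = 0.227), and its second probe also gave -0.35. Plec and Dst, also of the list, differed by -0.03 each (limma adjusted p = 0.947 and 0.921). The list's median difference was -0.00. Among 8 tested intermediate filament genes other than keratins, 0 passed the adjusted threshold. At an unadjusted p of 0.05, 2 of the 8 were higher and 0 lower, against the same shares of all genes tested. Vim, the vimentin of mesenchymal and dedifferentiated cells, was 2.66, 2.98, 2.28 and 2.69 on TAC arrays, against 2.20, 2.14, 1.89 and 2.09 on CTL arrays (difference 0.57, adjusted p = 0.147).

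**Figure D3:**
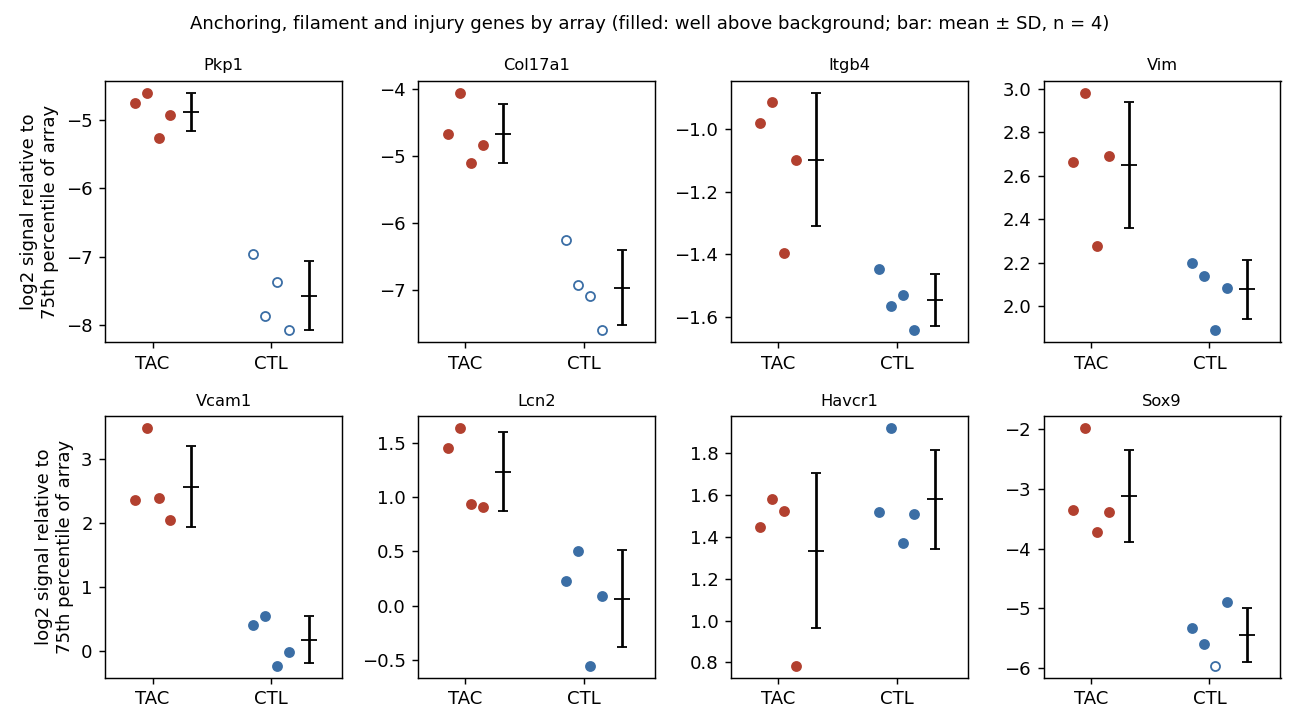
Levels of 8 genes that anchor keratins, form other filaments or mark tubular injury, as log2 signal relative to the 75th percentile of the array, with TAC left of CTL and bars for mean ± SD (n = 4). Open points are not well above background, as for all CTL arrays of Pkp1 and Col17a1, and Havcr1 is the panel in which the groups overlap.

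The array held probes for 44 further keratins, of which 17 were bright enough to be tested and 23 were below detection on all 8 arrays. With limma, 0 of the 17 passed the adjusted threshold, and at an unadjusted p of 0.05, 1 was higher and 3 were lower, against 7.04% and 8.42% of all genes tested. Their median difference was -0.17. Krt222 was 3.47, 3.48, 3.37 and 3.51 on TAC arrays, against 3.94, 3.90, 4.03 and 3.93 on CTL arrays. All its TAC arrays lay below all its CTL arrays, with a difference of -0.49 (SE 0.08, adjusted p = 0.0552, and 0.0264 to 0.155 over 18 alternatives). It passed the threshold under 4 of them. Krt6b, a keratin of activated epidermis, differed by -0.37 (adjusted p = 0.283), and Krt10, the keratin of suprabasal epidermis, by -0.25 (adjusted p = 0.292). For Krt85, a hair keratin, the brightest probe gave 0.23 (adjusted p = 0.301) and another bright probe -0.35, so that its direction depends on the probe.

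**Figure D4:**
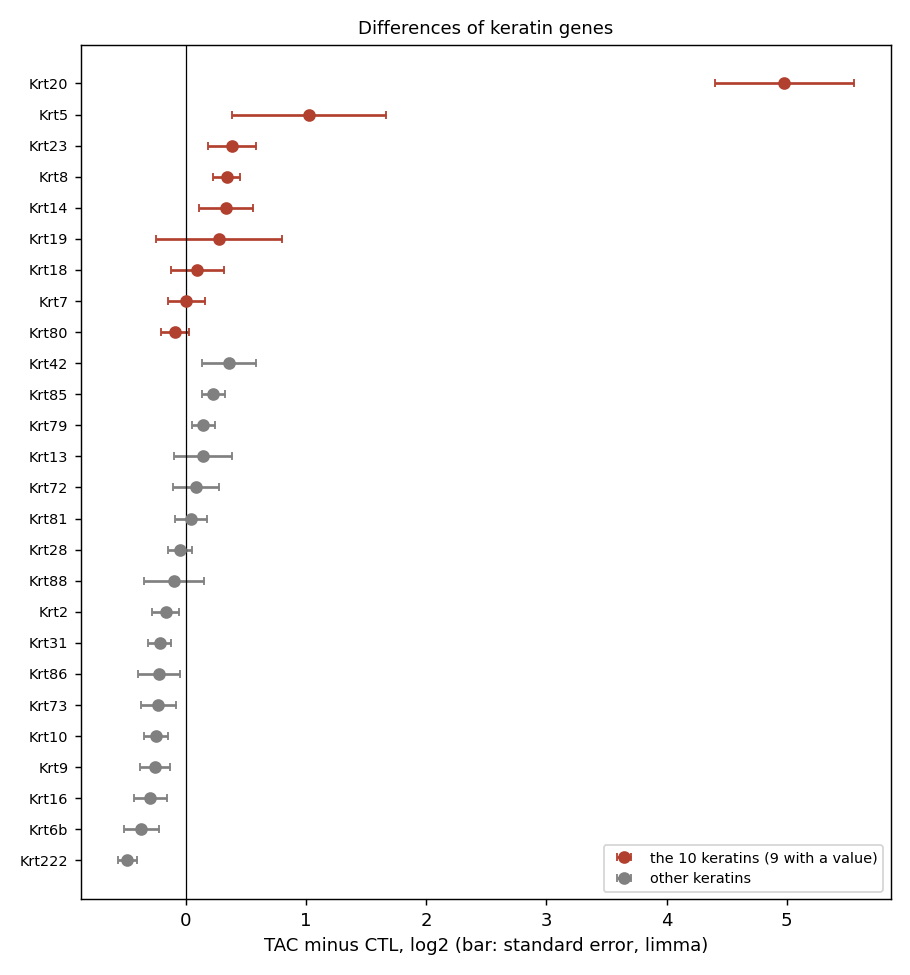
Difference in level, TAC minus CTL on the log2 scale, of the 9 tested keratins described above (red) and the 17 further tested keratins (grey), with bars for the limma standard error. Krt20 lies at 4.98 and Krt5 at 1.02 with a wide bar, while the further keratins lie between -0.49 and 0.36.

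Across the 8 arrays, the keratins deviated from their group means in different ways. The deviations of Krt20 were most like those of Gm5127, D030056L22Rik, Coil, Stim2 and Rabif among 17066 named genes, with Pearson r of 0.963 to 0.970. Those of Krt5 were most like Snapc3, Upk1a, Upk3a, Cabp2 and Lypd3, with r of 0.976 to 0.988, and 0.877 to 0.954 without TAC arrays 4 and 2. Uroplakins Upk1a and Upk3a were thus among the 5 genes nearest to Krt5, while Krt20 had r of -0.29 with Upk1a and -0.28 with Upk3a. Krt20 and Krt8 had r of 0.79, and 0.62 without CTL array 4 and TAC array 2. The genes nearest to Krt19 were Gpbp1, Cenpj, Lpgat1, Bccip and Piga (r of 0.973 to 0.983), with Upk1a at rank 26 (r of 0.95). Without TAC arrays 4 and 3, the r of Krt19 with Upk1a was 0.80, and that with Upk3a fell from 0.90 to 0.67. The genes nearest to Krt8 were Dusp8, Map7d2, 3110021A11Rik, F7 and Il1r1 (r of 0.961 to 0.986). These correlations describe 8 arrays of 1 slide that share their scaling, and for Krt5 and Krt19 the largest deviation is that of TAC array 4.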

How the data were processed

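Total kidney RNA of 8 samples (RIN 9 in all, per the labels) was hybridised to 1-colour arrays of 62976 features. Per the file headers, Feature Extraction 10.7.3.1 made the background-subtracted processed intensity used here. The deposited value table holds log2 values equal, to within 5.00e-09, to the quantile-normalized raw median intensity without background subtraction, and was used as an alternative. The submitters' processing notes name limma.

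The processed intensity was put on the log2 scale and the array's 75th percentile over 59305 non-control spots was subtracted. Outlier spots, 147 to 194 on an array, were dropped before spots of 1 probe were averaged. Probes well above background on at least 4 of 8 arrays were tested (36493 probes), with the brightest probe per gene (25127 genes). TAC was compared with CTL by limma 3.58.1 under R 4.3.3 (lmFit, eBayes, two-sided, Benjamini-Hochberg over all genes tested), and the script was tested on simulated data. The p-values measure the spread between numbered samples, which may be technical. Positions of probes on mm9 come from the array's annotation, and exon and UTR annotation on that build was not used here. Gene symbols came through accessions from RefSeq GRCm38.p6, with 28026 probes matched and 1651 renamed. Promoter sequences are those of RefSeq. A bound sets the mean of the bright group against, per dim array, whichever is higher of the lowest detectable signal and the probe's own.

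The 10 keratins and the companion lists (12 in all) were chosen with earlier results of these data known. Named genes were all 10 keratins, the 4 further keratins with the lowest unadjusted p, and fixed markers, called members and leading members of the lists. Likeness was the Pearson r of deviations from group means. Alternatives were quantile normalization, normexp (offset 50), array weights, the deposited table, no filter on dim probes or detection on all 8 arrays, averaging a gene's probes, robust estimation with an intensity trend, a replicate block, and leaving out arrays.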

Additional observations from a re-analysis of the deposited data

Results flagged for a closer look

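In 8 of 118 groups of 4 arrays checked, 1 array lay apart from the other 3, its gap to the nearest of them filling most of the group's range, past Dixon's critical value, and chance gives about 1 in 20. Among the keratins this was Krt20 on TAC array 2, at 0.73 with the other TAC arrays at -0.78 to -0.60 (gap share 0.882), and TAC array 2 also stood above the rest for C3, at 5.94 against 4.49 to 4.65 (0.891). The difference of Krt20 without TAC array 2 stayed within the range of 4.45 to 5.31 given for single arrays left out.

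The remaining cases were in companion genes. TAC array 2 was high for Lor, at -2.59 against -2.89 to -2.85 (0.842), TAC array 3 low for Lamb3, at -2.47 against -1.91 to -1.82 (0.859), and TAC array 4 high for Plin1, at -1.44 against -5.74 to -5.14 (0.859). CTL array 2 was high for Sprr1a, at -2.59 against -3.61 to -3.50 (0.887), for Upk3a, at -3.81 against -4.63 to -4.53 (0.875), and for Cidec, at -3.04 against -6.32 to -6.08 (0.928).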

How the results depend on the processing

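The number of genes called, 57, was 285 with normexp, 180 in the deposited table, 32 with no filter, 151 with the filter on all 8 arrays, 221 with an intensity trend, 309 with array weights and 20 without TAC arrays 1 and 4 together, and it ranged from 7 to 56 when 1 array was left out. Of the 10 keratins, 1 was called, against 0 with the filter on all 8 arrays, where Krt20 could not be tested because of CTL array 4, 0 without TAC arrays 1 and 4, and 0 to 1 with 1 array left out. Among the further keratins 0 were called, against 1 (Krt222) with normexp, the filter on all 8 arrays, the intensity trend or array weights, and 0 to 0 with 1 array left out. Of the companion genes 3 were called, Vcam1, Pkp1 and Col17a1, of which Pkp1 and Col17a1 entered the test only through TAC. The companion count was 5 in the deposited table, 1 with no filter, 7 with an intensity trend, 7 with array weights, 0 without TAC arrays 1 and 4, and 0 to 3 with 1 array left out. With the replicate number as a block, 103 genes and 7 companion genes were called and the keratin counts did not change. Same-numbered arrays had weakly correlated deviations, with r of 0.02 to 0.16, and the numbers were not used as pairs in the main fit. Whether same-numbered arrays share more than a number is not known. Where a count changed, the cause was not tested. Quantile normalization and the mean of a gene's probes left the keratin and companion counts at their values. Blocks of slide or scan were not run, because all arrays lay on 1 slide. Groups of 4 arrays limit the precision of every value, and the low CTL signal of Krt20, near background on CTL array 4, leaves the size of its fold change dependent on the background correction.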

Other observations

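Epithelial transcription factors and junction genes, which set and hold epithelial identity, were listed beside the keratins. Of 15 tested transcription factors 0 passed limma's adjusted threshold, and 4 were higher and 0 lower at an unadjusted p of 0.05, against 7.04% and 8.42% of all genes tested. Grhl1, a factor of surface epithelia, was -3.58, -3.87, -3.44 and -3.50 on TAC arrays, against -4.33, -4.28, -4.44 and -3.93 on CTL arrays (difference 0.65, adjusted p = 0.0948), and Klf5, a factor of collecting duct and gut epithelium, differed by 0.86 (adjusted p = 0.142). Every Grhl1 level in TAC lay above every level in CTL, while those of Klf5 overlapped.

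Of 19 tested junction genes 0 passed the adjusted threshold, and 5 were higher and 2 lower at an unadjusted p of 0.05, against the same shares of all genes. Cldn1, a tight junction protein of parietal epithelium, was -1.90, -1.36, -2.11 and -2.26 on TAC arrays, against -2.41, -2.84, -2.78 and -3.21 on CTL arrays (difference 0.90, adjusted p = 0.130). Lamb3, a laminin chain of epithelial basement membranes, differed by 0.89 (adjusted p = 0.125), with no overlap. The adhesion proteins Epcam and Cdh1, found across tubular epithelium, differed by 0.22 (adjusted p = 0.716) and 0.07 (adjusted p = 0.930), and both changed sign under some alternatives, with ranges of -0.14 to 0.44 and -0.34 to 0.30. Among 8 tested squamous epithelium genes 0 passed the adjusted threshold. At an unadjusted p of 0.05, 0 were higher and 1 was lower, against 7.04% and 8.42% of all genes tested.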
